A study of Mus musculus with 8 samples.

Results

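The miRNAs described here are those encoded inside the 4 mouse Hox gene clusters: miR-10a, miR-10b, miR-196a, miR-196b and miR-615. They were taken by name from both deposited tables, with every arm and hairpin copy, and made up 3 of 452 rows of the first table and 6 of 371 rows of the second, or 5 of 481 miRNA numbers in all. The libraries were small RNA from bone marrow-derived macrophages, that is, phagocytes matured in culture from marrow precursors under the growth factor M-CSF (a supernatant worth 20 ng/ml) over 3 days. Mice were of a mixed C57BL/6 and 129 background that was over 90% C57BL/6. The 4 groups were wild type (WT) without stimulation, WT with TNF for 24 hours, and RBP-J knockout (Rbpjf/f; LysM Cre) without stimulation or with TNF for 24 hours. LysM Cre acts mainly in myeloid cells, so loss of the floxed gene is aimed at those cells. The labels do not say whether WT mice carried the floxed allele or Cre, give no age or sex, and do not say that replicates came from separate animals or cultures. RBP-J, the transcription factor to which the released Notch intracellular domain binds, is itself no miRNA, so its loss could not be checked in these tables.

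Each group had 2 libraries, 1 in each table. The first table gives CPM (reads relative to all miRNA reads of a library) of mature miRNAs by arm, from 321327 to 848650 miRNA reads a library. The second gives RPKM (reads relative to the hairpin's length and to the size of the whole library) of hairpin genes. Its libraries held about 13574377 to 21712254 reads of all kinds. Of these, 6647012 to 12701596 were reads of the listed miRNAs, so by miRNA reads too it is far deeper. Units differ, so every ratio was taken within a table. The myeloid miRNAs fixed as markers of the labelled cell type summed to 162163 to 204132 CPM and to 2307350 to 3378470 RPKM. That covers 4 listed names of 5, miR-21a, miR-22, miR-142a and miR-223, with miR-142 not listed beside miR-142a. Most of both sums came from miR-21a and miR-22. miR-142a stood at 10504 to 14315 CPM and 86062 to 134003 RPKM, and miR-223 at 989 to 4522 CPM and 33103 to 49045 RPKM. Of the CPM libraries, WT without stimulation stood farthest from the rest, at 1.39 times the mean spread among the others, and of the RPKM libraries the unstimulated knockout, at 1.41 times. Measures of bulk RNA do not tell fewer cells of a type from less RNA per cell.

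Hox clusters are rows of homeobox genes, transcription factors that set position along the body axis and act in blood stem and progenitor cells. The miRNAs between the Hox genes are processed from transcripts of the same clusters, and miR-10 and miR-196 are known to repress Hox messenger RNAs. A miRNA guides the silencing complex to target messages chiefly through its seed, bases 2 to 8 from the 5′ end, so miRNAs with the same seed share most predicted targets. In blood cells miR-10a, miR-196b and the Hox genes around them are best known from progenitors and from leukaemias.

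The mature sequences are shown because the 5 miRNAs fall into 3 seed groups. All 5 names matched RefSeq entries (GRCm38.p6), the seed is in capitals, and miR-615 is shown with both arms because the deposited hairpin row does not separate them.
miR-10a-5p: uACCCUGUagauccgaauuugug
miR-10b-5p: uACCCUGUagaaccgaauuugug
miR-196a-5p: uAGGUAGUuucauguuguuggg
miR-196b-5p: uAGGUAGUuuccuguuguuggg
miR-615-3p: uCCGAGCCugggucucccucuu
miR-615-5p: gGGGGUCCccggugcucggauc
Counted from 1 at the 5′ end, miR-10a-5p and miR-10b-5p differ at 1 of 23 bases, U12A, outside the seed. Likewise miR-196a-5p and miR-196b-5p differ at 1 of 22 bases, A12C. Of 1679 mature mouse miRNAs in the RefSeq table, 2 have the seed ACCCUGU and 2 the seed AGGUAGU, and in both cases they are the members named here. The seed CCGAGCC was found in miR-615-3p alone. Because a single base separates the members of each pair, the split of reads between them depends on how mismatched reads were assigned, and the aligner was not given in the sources used here.

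The 6 hairpins lie in all 4 clusters (coordinates of GRCm38, GENCODE M21). Mir10a, at chr11:96317165-96317274 on the plus strand, lies between Hox genes of the HoxB cluster, 1.10 kb upstream of Hoxb4 and 11.04 kb downstream of Hoxb5, and overlaps no annotated gene. Mir196a-1, the first copy of miR-196a, is in the same cluster at chr11:96265164-96265265, plus strand, 6.29 kb upstream of Hoxb9 and also in no annotated gene. Mir10b lies in the HoxD cluster at chr2:74726070-74726137, plus strand, within introns of Hoxd3 and Hoxd4 transcripts. The second copy of miR-196a, Mir196a-2, lies in the HoxC cluster at chr15:102973350-102973434, plus strand, in an intron of a long Hoxc5 transcript and between Hoxc10 and Hoxc9. Mir615 lies further along HoxC at chr15:103014910-103015001, plus strand, in an intron of Hoxc5. Mir196b is in the HoxA cluster at chr6:52230081-52230165 on the minus strand, within an exon of a Hoxa9 transcript. Mir10a and Mir10b thus hold nearly the same mature miRNA in different clusters, in hairpins that differ outside it. Capitals mark the mature 5p arm and the opposite 3p arm, which flank the loop.
Mir10a hairpin: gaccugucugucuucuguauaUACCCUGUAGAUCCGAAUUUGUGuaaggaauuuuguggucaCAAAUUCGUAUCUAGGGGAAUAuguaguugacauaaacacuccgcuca
Mir10b hairpin: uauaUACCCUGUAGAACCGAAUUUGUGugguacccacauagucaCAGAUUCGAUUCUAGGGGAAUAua

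**Figure D1:**
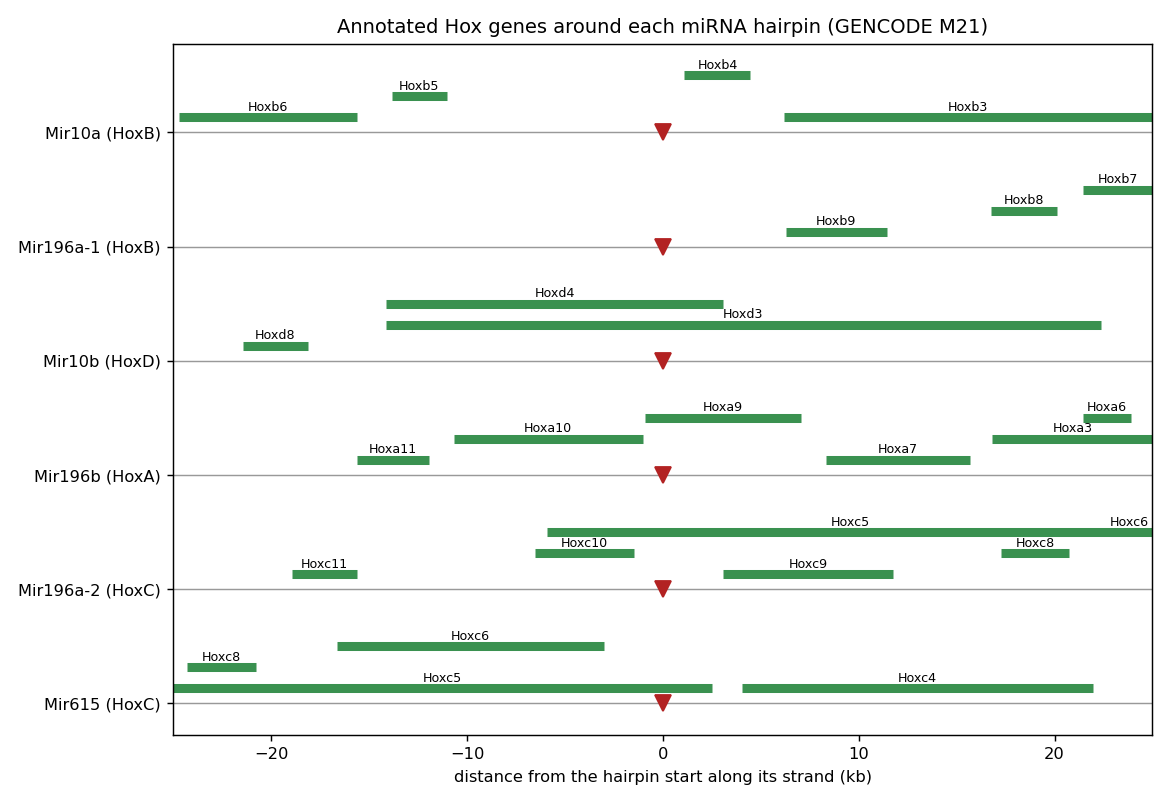
Annotated Hox genes (green bars, GENCODE M21) around each miRNA hairpin (red triangle), with the distance from the hairpin's start along its own strand in kb on the x axis and 1 hairpin per line. Mir10b, Mir196b, Mir196a-2 and Mir615 overlap a Hox gene, and Mir10a and Mir196a-1 lie between genes, Mir10a 1.10 kb upstream of Hoxb4.

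miR-10a was by far the most abundant of the 5 in these macrophages. Its 5p arm stood at 25242 CPM in WT without stimulation, 11540 CPM in WT with TNF, 28711 CPM in the unstimulated knockout and 21749 CPM in the knockout with TNF. Those levels placed it 14th, 18th, 12th and 13th among the 452 rows, with WT with TNF the lowest library. Nearly all reads came from the 5p arm, which the silencing complex mostly retains. The 3p arm had 9, 4, 14 and 7 reads in the same order, which is 0.111% of miR-10a reads in WT without stimulation (95% Wilson interval 0.0583 to 0.211) and 0.0379% in the knockout with TNF (0.0184 to 0.0782). In the RPKM table Mir10a stood at 167395, 263777, 253954 and 312036 RPKM, again in the order WT, WT with TNF, knockout, knockout with TNF. Here WT without stimulation was the lowest library, and the hairpin was among the 7 most abundant of 371 in every library. It took 3.68% of the listed reads in WT without stimulation and 6.46% in the knockout with TNF.

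miR-10b, with the same seed, was far scarcer. It was listed by its 5p arm at 87.1, 69.4, 76.5 and 77.8 CPM, which are 28, 39, 27 and 66 reads, so the 4 CPM libraries lay within 1.26 times of each other. In the RPKM table it stood at 3357, 2015, 2767 and 753 RPKM, or 4956, 2650, 2802 and 695 reads, and the knockout with TNF was the lowest library. Of all miR-10 reads, miR-10b made up 0.265% to 0.597% over the CPM libraries and 0.149% to 1.22% over the RPKM libraries.

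The other 3 miRNAs were listed in the RPKM table alone, so each group had a single library and no pair of groups could be tested. miR-196b stood at 216, 332, 116 and 62.4 RPKM (398, 546, 147 and 72 reads). Both WT libraries were above both knockout libraries. miR-615 stood at 92.6, 299, 40.1 and 54.5 RPKM (185, 532, 55 and 68 reads). Again both WT libraries were above both knockout libraries, and WT with TNF was the highest. miR-196a, summed over its copies, stood at 31.4, 76.3, 12.3 and 26.2 RPKM, and WT with TNF was again the highest and the unstimulated knockout the lowest. Most of it was counted to the HoxC copy, Mir196a-2, at 30.98, 73.8, 10.99 and 25.4 RPKM. The HoxB copy, Mir196a-1, had 1, 5, 2 and 1 reads (0.452, 2.53, 1.32 and 0.722 RPKM). Both copies give the same 5p sequence and the recovered reads of Mir196a-2 were not whole numbers (57.2, 121, 13.9 and 29.4), so the split between the HoxB and the HoxC copy is uncertain.

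Per length, the order of levels was miR-10a, miR-10b, miR-196b, miR-615 and miR-196a in each of the 4 RPKM libraries. miR-10a was 49.9 to 414 times as high as miR-10b. Neighbours in that order were separated beyond counting error except miR-196b and miR-615 with TNF. Their ratio was 1.11 (exact 95% counting interval 0.984 to 1.25) in WT with TNF and 1.15 (0.811 to 1.62) in the knockout with TNF. Intervals and ratios of reads cover counting error only, since reads carry no molecular identifiers.

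**Figure D2:**
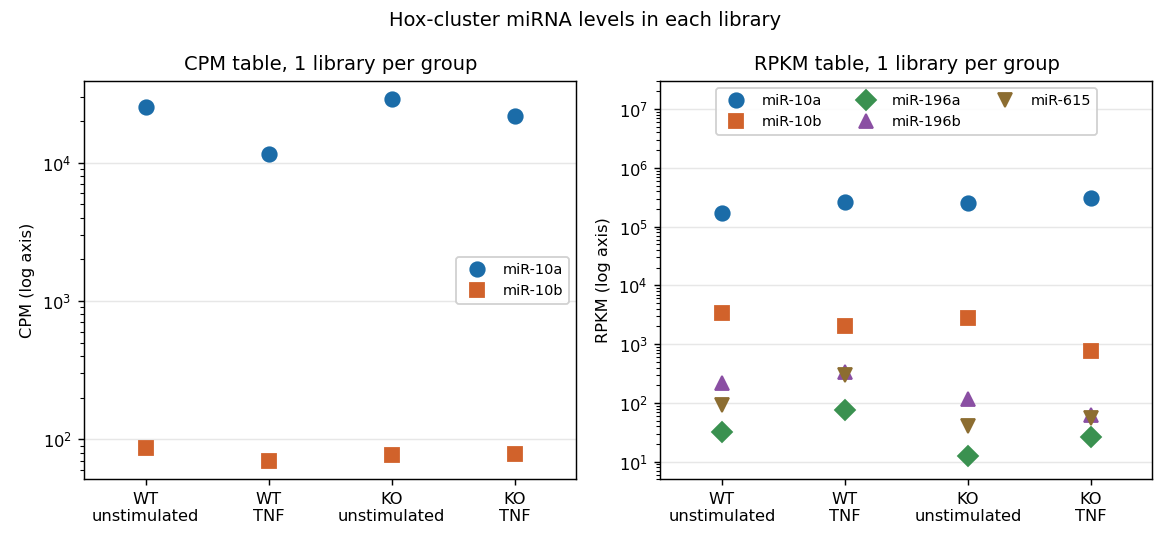
Levels of the Hox-cluster miRNAs in each library on log axes, in CPM on the left and RPKM on the right, 1 point per library and group with arms or hairpin copies summed. miR-10a stands above miR-10b in all 8 libraries, and miR-196a, miR-196b and miR-615, listed on the right alone, are highest in WT with TNF.

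The first comparison asked which miRNAs change when macrophages meet TNF, an inflammatory cytokine that drives macrophage activation. In WT, miR-10a was on opposite sides in the 2 tables, at 0.457 times the unstimulated level in CPM and 1.58 times in RPKM. Fitted over both tables to log2(value + 1), its log2 fold change was -0.24 ± 0.41 (moderated SE, limma, n = 2 libraries a group, adjusted p = 0.956). miR-10b was lower with TNF in both tables, as were 17.3% of the 185 miRNAs tested in both, at 0.796 times in CPM (counting interval 0.477 to 1.34) and 0.600 times in RPKM (0.572 to 0.629), with a fitted log2 fold change of -0.53 ± 0.70 (limma, adjusted p = 0.951). Scaling by median of ratios turned the CPM value of miR-10b from -0.33 to 0.34 on the log2 scale. Whole tables were also displaced against each other: the median log2 ratio of WT with TNF to WT was -0.56 over 255 miRNAs of the CPM table and 0.45 over 219 of the RPKM table, and 57.8% of the 185 lay on opposite sides. The listed miRNAs took 49.98% of RPKM-table reads in WT without stimulation and 65.67% with TNF. That change in library content enters every RPKM ratio of this pair, and as a share of the listed reads the log2 ratio of miR-10a was 0.26 in place of 0.66. Without either WT library of the CPM table the fitted value of miR-10a was above 0, at 0.32 without the unstimulated one and 0.40 without the one with TNF.

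The RPKM-only members were all higher with TNF in WT, as were 77.2% of the 219 miRNAs of the table. miR-615 was 3.23 times as high (counting interval 2.73 to 3.84), above 94.5% of the table's miRNAs by that ratio. miR-196a was 2.43 times as high (1.77 to 3.39) and miR-196b 1.54 times (1.35 to 1.76), the latter near the table's median. In terms of the listed reads the log2 ratios were 1.30, 0.89 and 0.23. That measure takes the same amount off each log2 ratio, so the order of the 3 could not change.

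In the knockout, miR-10a with TNF was at 0.757 times the unstimulated level in CPM and 1.23 times in RPKM, a fitted log2 fold change of -0.05 ± 0.41 (limma, adjusted p = 0.988). Both of these lay at the median of their own tables, -0.41 and 0.30 on the log2 scale. Under median-of-ratios scaling the CPM value was 0.02 instead of -0.40. miR-10b was 1.02 times as high in CPM (0.641 to 1.66) and 0.272 times in RPKM (0.250 to 0.296), a ratio lower than that of all but 0.913% of the miRNAs of the RPKM table. The fitted log2 fold change was -0.93 ± 0.70 (limma, adjusted p = 0.886), and the counting intervals of the 2 tables did not overlap. It ran from -0.014 without the knockout with TNF of the RPKM table to -1.84 without that of the CPM table. miR-196b was lower with TNF in the knockout, at 0.537 times (0.400 to 0.717). miR-196a was 2.13 times as high (1.09 to 4.04, from 16 and 30 reads), and miR-615 was 1.36 times as high, with a counting interval of 0.937 to 1.97 that includes no change.

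Taking both genotypes, miR-10a, miR-196a and miR-615 were higher with TNF in both pairs of the RPKM table, or 3 of the 5 members, where 60.3% of 219 miRNAs met that rule. At 2-fold or more in both pairs it was 1 of 5, miR-196a, against 7.31%, and under the other scalings miR-196a was below 2-fold in both pairs, at log2 ratios of 0.84 to 0.89. miR-10b was lower in both RPKM pairs, as were 17.8% of miRNAs. Neither miR-10a nor miR-10b was on the same side with TNF in all 4 pairs over both tables, where 14.1% of the 185 were higher in all and 9.73% lower in all. Over both tables no member was called in limma, where no miRNA of the 185 tested (0%) passed an adjusted p of 0.05 for TNF in WT, TNF in the knockout or TNF averaged over genotypes. At an unadjusted p under 0.05 the counts were 12 (6.49%), 18 (9.73%) and 26 (14.1%) miRNAs, none of them miR-10a or miR-10b. On recovered reads edgeR called 0, 0 and 0, and DESeq2 called 0, 4 and 5. Averaged over genotypes the TNF effect was -0.14 ± 0.29 for miR-10a (limma, adjusted p = 0.887) and -0.73 ± 0.49 for miR-10b (limma, adjusted p = 0.550). The difference of the TNF effect between genotypes was 0.18 ± 0.59 for miR-10a and -0.40 ± 0.99 for miR-10b, both with an adjusted p of 0.987 in limma. No miRNA of the 185 (0%) was called for that difference, by limma, edgeR or DESeq2, and at an unadjusted p under 0.05 limma gave 1 (0.541%), edgeR 3 and DESeq2 2.

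**Figure D3:**
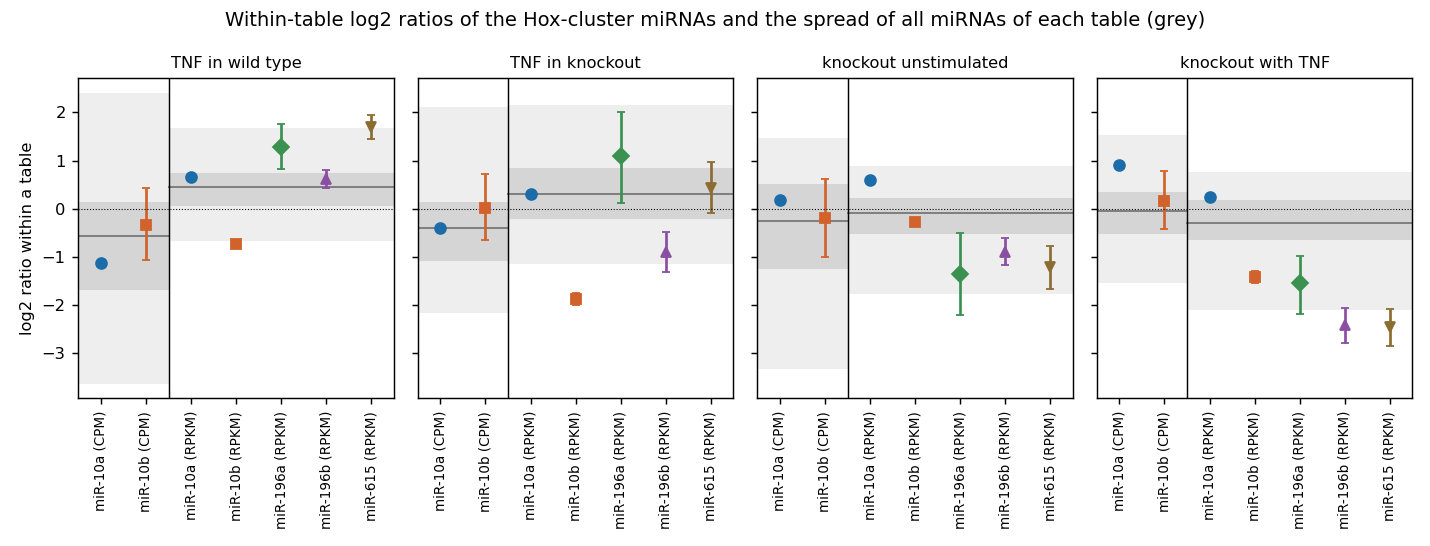
Log2 ratios within each table for the 4 comparisons (panels), with miR-10a and miR-10b of the CPM table left of the vertical line and the 5 members of the RPKM table right of it. Bars are exact 95% counting intervals, grey bands the 5th to 95th and 25th to 75th percentiles of all miRNAs of that table and grey lines the medians; miR-196b and miR-615 stand lowest in the knockout with TNF, at log2 ratios of -2.41 and -2.46.

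The second comparison asked which miRNAs depend on RBP-J. miR-10a was higher in the knockout in all 4 within-table pairs, the one member of 2 to keep a side, where 7.57% of 185 miRNAs did so upwards. Without TNF the ratio to WT was 1.14 in CPM (counting interval 1.10 to 1.17) and 1.52 in RPKM (1.51 to 1.52). With TNF it was 1.88 in CPM (1.83 to 1.94) and 1.18 in RPKM (1.18 to 1.19). These directions held under both other scalings. The fitted log2 fold changes were 0.39 ± 0.41 without TNF (limma, adjusted p = 0.879) and 0.58 ± 0.41 with TNF (limma, adjusted p = 0.9996). Averaged over treatments the difference was 0.49 ± 0.29 (limma, adjusted p = 0.866, unadjusted p = 0.130) and did not pass the threshold. Leaving out WT without stimulation of the RPKM table turned the estimate without TNF to -0.16, and leaving out WT with TNF of the CPM table turned the estimate with TNF to -0.060. The average stayed above 0, from 0.17 to 0.80, whichever of the 8 libraries was left out.

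miR-10b showed no common direction. The ratio of knockout to WT without TNF was 0.877 in CPM (0.498 to 1.54) and 0.824 in RPKM (0.787 to 0.864), and with TNF it was 1.12 in CPM (0.744 to 1.71) and 0.374 in RPKM (0.343 to 0.406). Under median-of-ratios scaling the CPM value without TNF was on the other side, at a log2 ratio of 0.14. The fitted values were -0.23 ± 0.70 without TNF (limma, adjusted p = 0.958), -0.63 ± 0.70 with TNF (limma, adjusted p = 0.9996) and -0.43 ± 0.49 averaged (limma, adjusted p = 0.927). That average rested on 1 library: without the knockout with TNF of the RPKM table it was 0.026, and the value with TNF was 0.28. Without TNF the estimate was 0.18 when WT without stimulation of the RPKM table was left out and 0.12 when the unstimulated knockout of the CPM table was.

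The 3 RPKM-only members were lower in the knockout library of both pairs. miR-615 stood at 0.433 times WT without TNF (0.315 to 0.589) and 0.182 times with TNF (0.139 to 0.235). miR-196b stood at 0.538 times (0.443 to 0.652) and 0.188 times (0.145 to 0.241). miR-196a stood at 0.391 times (0.216 to 0.709) and 0.343 times (0.220 to 0.508). With TNF the ratios of miR-615 and miR-196b were among the lowest in the table, with 1.37% and 2.28% of its miRNAs below them. Counting miR-10b, 4 of the 5 members were lower in both RPKM pairs, against 48.4% of the 219 miRNAs of that table, so that side is also the commoner one among all miRNAs. At 2-fold or more in both pairs the count was 2 of 5, miR-196a and miR-615, against 9.59%. Each pair is 2 single libraries, and these 3 miRNAs have no row in the CPM table that could be set beside them. Directions held under both other scalings.

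Effects averaged over the other factor can be fitted within the RPKM table, where 4 libraries leave 1 residual degree of freedom. This limma fit of genotype plus treatment, over 219 miRNAs, was added after the data were seen and takes any difference of the TNF effect between genotypes as noise. Its moderation gave a miRNA's own spread no weight, so the SE come from the trend over all miRNAs. For the knockout, miR-10b (-0.85 ± 0.23, adjusted p = 0.00450), miR-196b (-1.64 ± 0.46, adjusted p = 0.00538) and miR-615 (-1.81 ± 0.52, adjusted p = 0.00662) were called lower by limma, 3 of 5 members beside 14.2% of all miRNAs. miR-196a (-1.40 ± 0.63, limma, adjusted p = 0.112) and miR-10a (0.42 ± 0.19, limma, adjusted p = 0.117) were not. For TNF, miR-10b was called lower (-1.31 ± 0.23, limma, adjusted p = 2.99e-06), as were 1.83% of miRNAs, and miR-10a higher (0.48 ± 0.19, limma, adjusted p = 0.0452), as were 27.9%. The other 3 were not called for TNF: miR-196a had 1.14 ± 0.63, miR-196b -0.13 ± 0.46 and miR-615 1.06 ± 0.52. All these calls were lost when values were rescaled to the listed miRNAs or when each miRNA's own spread was used, settings under which no miRNA of the 219 passed for either effect in limma. At an unadjusted p under 0.05 there were 50 miRNAs for the knockout and 56 for TNF when rescaled, and 17 and 22 with the own spread. Under median-of-ratios scaling miR-10a was called higher in the knockout (limma, adjusted p = 0.00669) and no longer with TNF (0.402).

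Over all 185 miRNAs, limma called none (0%) for the knockout without TNF or with TNF, and 1, miR-151 (lower), or 0.541%, for the knockout averaged over treatments. The counts at an unadjusted p under 0.05 were 5 (2.7%), 4 (2.16%) and 14 (7.57%), again with neither miR-10a nor miR-10b among them. edgeR called 0, 0 and 1 miRNAs and DESeq2 0, 0 and 2.

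A ratio of miR-10a to miR-10b within a library does not depend on how that library was scaled. In the CPM table the ratio was 290 in WT, 166 in WT with TNF, 376 in the knockout and 280 in the knockout with TNF, and in the RPKM table it was 49.9, 131, 91.8 and 414. RPKM ratios are per hairpin length (110 bases for Mir10a, 68 for Mir10b) and CPM ratios are not, so their levels cannot be compared between tables. In each of the 4 pairs the knockout library was higher than its WT library. The CPM ratios rest on 27 to 66 miR-10b reads. Wilson intervals of the miR-10b share of miR-10 reads overlapped in both CPM pairs. Without TNF they were 0.238% to 0.496% in WT and 0.182% to 0.386% in the knockout. With TNF they were 0.437% to 0.815% and 0.280% to 0.453%. The mean log2 difference was 0.92, made up of 0.56 for CPM and 1.27 for RPKM (two-sided exact permutation test within tables, 36 arrangements, p = 0.278, 4 libraries against 4). With 1 library left out it ran from 0.37 to 1.46. With TNF the ratio was lower in both CPM pairs and higher in both RPKM pairs. The mean log2 differences were -0.61 and 1.78, and the overall value was 0.58 (exact permutation p = 0.500), or from 0.17 to 1.00 with 1 library left out. The smallest p that this design allows is 0.0556, so the test could not have passed 0.05.

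**Figure D4:**
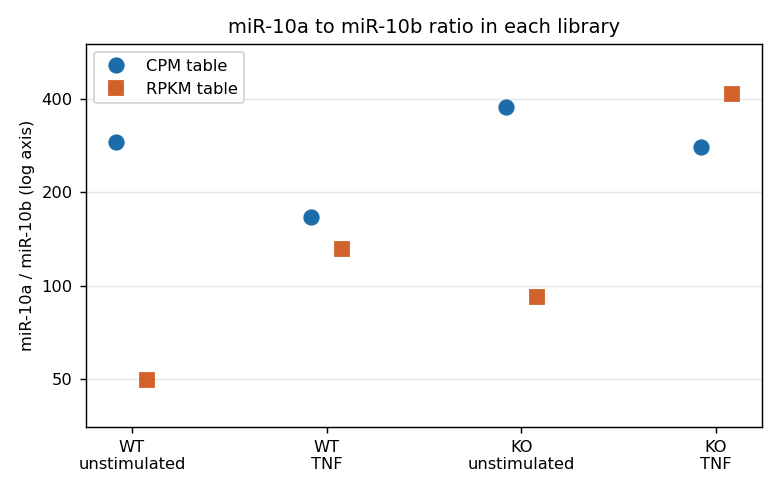
Ratio of miR-10a to miR-10b (log axis) in each of the 8 libraries by group, with circles for the CPM table and squares for the RPKM table. RPKM ratios are per hairpin length and CPM ratios are not, so levels cannot be compared between tables. Each knockout library stands above the WT library of the same table and treatment, the ratio running from 49.9 to 414 in the RPKM table and from 166 to 376 in the CPM table. The CPM ratios rest on 27 to 66 miR-10b reads.

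In RPKM the sums of the myeloid, stromal, lymphoid, erythroid, epithelial and progenitor-linked lists were all highest in WT with TNF. All were lowest in the unstimulated knockout. The endothelial and platelet list, miR-126a alone, was instead highest in the unstimulated knockout. The share of library reads taken by the listed miRNAs was also highest in WT with TNF (65.67%) and lowest in the unstimulated knockout (44.63%). That order was thus not particular to 1 list. Marrow cultures can hold stromal cells, in which Hox genes are active, so a list of 8 stromal miRNAs (fibroblast, smooth muscle and osteoblast lineage) was read beside the RPKM-only members. Of the 8, 5 were listed in RPKM by the names used, miR-143, miR-145a, miR-199a, miR-214 and miR-218, and none was at 0. miR-497a was not found by that name, and a row named miR-497 was left out of the counts and sums. That row stood at 159 RPKM in WT, 187 in WT with TNF, 81.5 in the knockout and 51.7 in the knockout with TNF. It was lower in both knockout pairs, and with TNF higher in WT and lower in the knockout. The summed level of the 5 was 17166 RPKM in WT, 53236 in WT with TNF, 3590 in the knockout and 11766 in the knockout with TNF. All 5 were lower in the knockout in both pairs, beside 48.4% of all miRNAs, and 3 of 5 were higher with TNF in both, beside 60.3%. miR-143 made up most of the sum, at 16593, 51576, 3380 and 11410 RPKM. The highest library, WT with TNF, was the same for that sum as for miR-196a, miR-196b and miR-615, and the lowest, the unstimulated knockout, was the same as for miR-196a and miR-615. Of the same 8, 3 were listed in CPM, miR-143, miR-199a and miR-199b, with sums of 99.6, 32.0, 90.6 and 57.7 CPM. There none was lower in both knockout pairs and 2, miR-199a and miR-199b, were higher in both, the side opposite to the RPKM table. Those 2 had nearly the same CPM values, at 9.34, 10.67, 19.82 and 16.5 for miR-199a and 9.34, 10.67, 19.82 and 15.32 for miR-199b. They may thus not be separate measures. miR-199a had 3, 6, 7 and 14 reads. Of 255 miRNAs of the CPM table, 38.0% were higher in the knockout without TNF and 46.3% with TNF. The epithelial list had sums of 524, 1277, 459 and 761 RPKM. Of its 7 listed miRNAs, 5 were lower and 2 higher in both knockout pairs, and 5 were higher with TNF in both. The progenitor-linked list (without the members) had 3 of 4 lower in the knockout and 3 of 4 higher with TNF. Its sums were 7058, 15200 and 5077 RPKM and, in the knockout with TNF, 11937 RPKM. The same 48.4% and 60.3% of all miRNAs stand beside these counts. In CPM, 4 of 7 epithelial and 3 of 5 progenitor-linked miRNAs were lower in both knockout pairs. With TNF, 6 of 7 and 4 of 5 were lower in both CPM pairs and 0 higher, the side opposite to the RPKM table. In single pairs, 60.8% and 52.9% of 255 CPM miRNAs were lower in the knockout, without and with TNF. With TNF, 69.8% in WT and 71.4% in the knockout were lower, so that side was the commoner one in CPM. Of the 7 epithelial miRNAs, 3 were at 0 in a CPM library. The part of stromal, epithelial or progenitor RNA in the values of the Hox-cluster miRNAs was not tested.

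**Figure D5:**
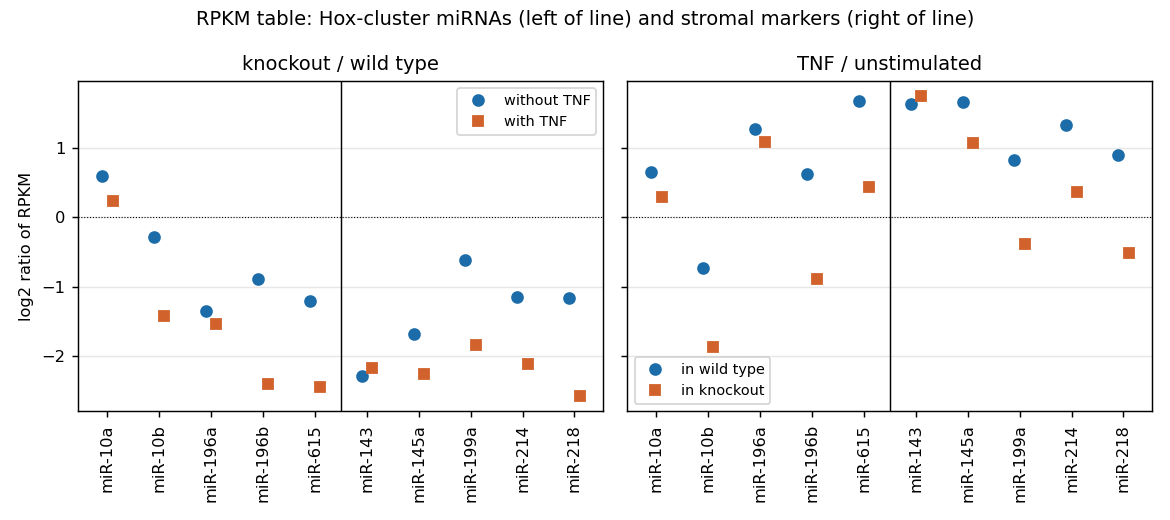
Log2 ratios of RPKM for the 5 Hox-cluster miRNAs (left of the vertical line) and the 5 listed stromal miRNAs (right of it), knockout over WT in the left panel and TNF over no TNF in the right panel, 1 point per pair of libraries. All 5 stromal miRNAs shown, miR-10b, miR-196a, miR-196b and miR-615 lie below 0 in both knockout pairs, and miR-10a lies above 0. The row named miR-497 is not shown.

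The wider mir-10 sequence family includes miR-99a, miR-99b, miR-100, miR-125a and miR-125b, which lie outside the Hox clusters. Their 5p sequences, with the seed in capitals, are shown because none carries a seed of the Hox-cluster members.
miR-99a-5p: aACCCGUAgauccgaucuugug
miR-99b-5p: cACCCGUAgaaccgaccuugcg
miR-100-5p: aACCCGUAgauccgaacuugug
miR-125a-5p: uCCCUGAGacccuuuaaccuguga
miR-125b-5p: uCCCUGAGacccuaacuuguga
Of these 5, 4 were listed in both tables and tested, and none was called in any of the 7 comparisons by limma, edgeR or DESeq2. For the knockout averaged over treatments the median log2 fold change of the 4 was -0.80, beside -0.13 over all 185 miRNAs and 0.49 for miR-10a. miR-125a had the lowest value of the 4, -1.29 ± 0.31 (limma, adjusted p = 0.162). For TNF averaged over genotypes their median was 0.61, beside -0.13 over all miRNAs and -0.14 for miR-10a, and miR-99b had the highest value, 1.05 ± 0.34 (limma, adjusted p = 0.220). miR-100 was listed in CPM alone with 5, 20, 2 and 2 reads.

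By root mean square difference of centred log2 values over 8 libraries, the miRNAs most like miR-10a among 184 others were miR-301b (0.138), miR-128 (0.248) and miR-93 (0.259), where the median over all was 0.603. miR-301b stood at 156, 53.4, 133 and 101 CPM and at 204, 283, 296 and 326 RPKM, so its order over the libraries was nearly that of miR-10a. For miR-10b they were miR-92b (0.442), miR-148a (0.449) and miR-126a (0.517), with a median of 0.845. None of them was as near to miR-10b as miR-301b was to miR-10a.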

How the data were processed

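Small RNA libraries were made with the TruSeq small RNA kit, per the labels' protocols. CASAVA 1.8.2 is named in the submitters' processing notes; the aligner, counter and build used are not given in the sources used here. The first table holds CPM deposited by the authors for 452 mature miRNAs, each above 5 CPM in at least 1 library. All its low values were whole multiples of 1 read (tolerance 0.1 reads). The second table carries no unit name, and its deposited values were read as RPKM because, multiplied by GENCODE M21 gene length (363 of 371 identifiers), 94.7% to 95.3% of low values were whole reads. It is scaled to all reads of the library, so a change in the miRNA share moves all its values.

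Columns name a group but no replicate; the CPM table is replicate 1 and the RPKM table replicate 2 by the tables' names. Arms and hairpin copies were summed, and 198 miRNAs matched by number (23 through older symbols). limma 3.58.1 (R 4.3.3) was fitted to log2(value + 1) of the 185 miRNAs with a mean of at least 5, with 4 groups and the table as a block. In each of 7 comparisons two-sided p-values were adjusted (Benjamini-Hochberg) over all 185, at 0.05. Such log2 values understate changes of low miRNAs, and ± is the moderated SE. Deviations of same-numbered libraries correlated at 0.752 to 0.917, which includes the change of unit between tables. The labels name no separate animals or cultures, so p-values reflect the spread of these libraries alone, which could be technical. The fit was tested on simulated data. Ratios within a table have exact (Clopper-Pearson) conditional intervals, and shares Wilson intervals, both at 95%, for counting error only. Members of the RPKM table alone have 1 library a group, so pairs of groups were not tested; averaged effects were fitted by limma within that table (219 miRNAs, genotype plus treatment, 1 residual degree of freedom), which was added after seeing the data. The miR-10a to miR-10b ratio was tested by exact permutation in SciPy 1.17.1. Alternatives were 2 pseudocounts, 3 filters, 2 scalings, the more abundant arm, no block, each library left out, and edgeR 4.0.16 and DESeq2 1.42.0 on recovered reads (rounded). All rows of the 5 members are named, with the relatives by sequence family and, for each of miR-10a and miR-10b, the 3 nearest miRNAs by centred log2 values. Members, lists and tests were chosen with earlier results of these data known.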

Additional observations from a re-analysis of the deposited data

Results flagged for a closer look

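The TNF effect on miR-196b lay on opposite sides in the 2 genotypes of the RPKM table. The log2 ratio was 0.62 in WT (398 and 546 reads) and -0.90 in the knockout (147 and 72 reads), a difference of -1.52. With 1 library per group this difference was not tested. Of the 219 miRNAs of that table, 60.3% were higher with TNF in both pairs and 17.8% lower in both. The remaining miRNAs also lay on opposite sides or showed no change in a pair. The flag needed the same pattern in both tables for miR-10a and miR-10b, but in 1 table for miR-196b. Its direction in each genotype was the same under the other 2 scalings, at 0.22 and 0.23 in WT and -1.10 and -1.15 in the knockout.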

How the results depend on the processing

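Neither miR-10a nor miR-10b was called under any alternative of the fit over both tables: the lowest adjusted p was 0.137 with a library left out and 0.299 otherwise. Over all miRNAs, DESeq2 called 4 for TNF in the knockout, 5 for TNF averaged and 2 for the knockout averaged, and median-of-ratios scaling called 1 for TNF averaged. Without the replicate block the knockout averaged had 0 calls in place of 1; no other count or member changed in call. With 1 library left out, counts ran from 0 to 17 for TNF in WT, 0 to 7 for TNF in the knockout, 0 to 6 for the knockout without TNF, 0 to 2 for the difference in TNF effect, 0 to 26 for TNF averaged and 0 to 5 for the knockout averaged, and stayed at 0 for the knockout with TNF. The highest of the counts for TNF in WT and TNF averaged, 17 and 26, came without WT unstimulated replicate 2.

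Estimates of miR-10a ran, with 1 library left out, from -0.87 to 0.40 for TNF in WT, -0.33 to 0.22 for TNF in the knockout, -0.16 to 0.95 and -0.060 to 1.22 for the knockout without and with TNF, -0.45 to 0.82 for the difference in TNF effect and -0.46 to 0.17 for TNF averaged. Those of miR-10b ran from -0.95 to -0.11 for TNF in WT, -1.84 to -0.014 for TNF in the knockout, -1.18 to -0.27 for TNF averaged, -0.65 to 0.18 and -1.54 to 0.28 for the knockout without and with TNF, -1.31 to 0.52 for the difference and -0.89 to 0.026 for the knockout averaged. For TNF in the knockout, miR-10a was at 0.063 under median-of-ratios scaling, 0.014 in edgeR and 0.021 in DESeq2, against -0.05; the cause was not tested. That scaling moved the median of all miRNAs from -0.08 to 0.09 for TNF in WT and from -0.13 to -0.01 for the knockout averaged. For the 3 miRNAs of the RPKM table alone, 56 of 60 values under other settings stayed within the counting interval and none changed direction. The pseudocount of 1 added to them was chosen after seeing the data. So was the fit within the RPKM table, which called 36 miRNAs for the knockout and 65 for TNF, and 0 and 0 both when rescaled to the listed miRNAs and when each miRNA's own spread was used; the cause was not tested. No library could be left out of that fit, because no residual degree of freedom would remain. Depth limits miR-10b in the CPM table, at 27 to 66 reads, and miR-196a in the RPKM table, at 16 to 126 reads.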
